A study of Mus musculus with 8 samples.

Results

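The genes described here are the IL-5 receptor and the JAK2-STAT5 pathway behind it: Il5ra, Csf2rb, Csf2rb2, Jak2, Stat5a, Stat5b, Cish, Socs2, Socs1 and Pim1. All 10 were found by symbol among the 24924 genes analysed and were followed through all 8 libraries of the series. Aged C57BL/6 mice of 20 to 22 months were injected with interleukin-5 (IL-5), at 2 µg each day over 2 days, or were given phosphate-buffered saline (PBS), and microglia and T cells sorted from their brains by surface markers were sequenced. There were 4 groups of 2 libraries: microglia after PBS, microglia after IL-5, brain T cells after PBS and brain T cells after IL-5. All mice were aged and of 1 strain, the sort markers are not named in the labels, and no library holds cells from young mice. The question was whether the sorted cells carry the transcripts needed to sense IL-5 directly.

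IL-5 binds an alpha chain, encoded by Il5ra, which pairs with the beta common chain encoded by Csf2rb to signal. The beta common chain also serves the receptors for IL-3 and GM-CSF, and mice carry a near copy of it, Csf2rb2, that pairs with the IL-3 receptor alpha chain. JAK2 bound to the beta chain is activated when ligand binds, it phosphorylates STAT5A and STAT5B, and these move to the nucleus and raise transcription of targets such as Cish, Socs2 and Pim1. Cish, Socs1 and Socs2 encode SH2-containing proteins that dampen cytokine signalling, and Pim1 encodes a serine/threonine kinase that favours survival. IL-5 is best known for acting on eosinophils and on B cells, and in T cells STAT5 is mainly driven by IL-2 and IL-7.

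The promoters of 2 of the genes are shown because they hold the paired half-site TTCNNNGAA that STAT5 and other STAT proteins recognise. Windows from RefSeq on GRCm38.p6, running from 250 bases before to 50 bases after each annotated start, were searched for these letters. The motif reads the same on both strands. RefSeq windows were matched for 8 of the 10 genes, in 11 windows. The motif was in 2726 of 32851 windows of this length (8.30%), and 2 or more motifs were in 150 of them (0.457%). Each stretch below has 120 bases before the start and 24 from it, 5′ to 3′ on the strand of the gene, with the motif in capitals: Csf2rb2 at chr15:78305698-78305841 on the minus strand, and Cish at chr9:107296539-107296682 on the plus strand.
Csf2rb2: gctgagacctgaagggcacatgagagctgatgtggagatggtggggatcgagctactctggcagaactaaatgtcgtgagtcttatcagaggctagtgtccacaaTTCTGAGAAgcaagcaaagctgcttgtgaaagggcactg
Cish: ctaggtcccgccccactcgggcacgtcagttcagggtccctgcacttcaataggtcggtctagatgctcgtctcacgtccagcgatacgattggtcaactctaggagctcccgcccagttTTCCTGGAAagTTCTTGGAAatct
Csf2rb2 had 1 motif, TTCTGAGAA, with its first base at position -15 from the start. Cish had 2 motifs, TTCCTGGAA with its first base at position 1, the start base itself, and TTCTTGGAA at position 12. The windows of Il5ra, Jak2, Stat5a, Stat5b, Socs1 and Pim1 did not hold these letters, and a motif is a match of letters only.

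Gene counts per library ran from 23536908 to 30423828, and levels are given as counts per 1000000 gene counts (CPM), in which 1 count was worth 0.0329 to 0.0425 CPM. Summed CPM of 10 microglial markers was 12061 to 24175 in the microglia libraries and 98.8 to 172 in the T cell libraries, and summed CPM of 10 measured T cell markers was 15.9 to 175 and 3941 to 6966. The microglia libraries also held neutrophil markers at a summed 13600 to 17645 CPM, all 11 of them with counts. Choroid plexus and ependymal markers summed to 34095 to 95273 CPM over all 8 libraries, and in each cell type both IL-5 sums were above both PBS sums. Nearly all of each sum was Ttr, at 33495 to 91511 CPM. In microglia Kl also had both IL-5 libraries above, Aqp1 had both below (6.37 and 15.5 CPM against 19.4 and 23.2 CPM), and the other markers overlapped. In T cells Clic6 and Foxj1 overlapped, and the other markers had both IL-5 libraries above. Microglia IL-5 replicate 1 stood apart from the other libraries: it had 25.5% of its reads outside genes, against 15.2% to 19.8% in the others, and the fewest genes with a count, 13172. In bulk samples such as these, fewer cells of a type and less RNA per cell cannot be told apart. The labels do not say that the 2 libraries of a group came from separate mice, so p-values measure the spread between these samples, which may be technical.

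Il5ra, the alpha chain that gives the receptor its specificity for IL-5 (GRCm38 chromosome 6, 106710357 to 106749037, minus strand), did not receive a single count in any of the 8 libraries. A count of 0 allows up to 3 counts, which came to 0.0986 to 0.127 CPM in single libraries. Over the 4 pooled microglia libraries, which held 108352760 gene counts, that limit was 0.0277 CPM, and over the 4 pooled T cell libraries it was 0.0276 CPM. The labels name no molecular identifiers, so reads may be PCR copies of each other, and intervals and limits of this kind account for counting error alone.

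Il5ra was 1 of 6728 genes (26.99%) with no count in any library. None of the 3501 windows of 75 bases along its longest annotated transcript occurred in a transcript of another gene. The haemoglobin genes Hba-a1, Hba-a2, Hbb-bs and Hbb-bt were also at 0 in all 8 libraries, and 56.6% to 81.0% of their windows were shared with other genes.

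Markers of eosinophils, the main IL-5-responsive cells, had counts at low levels. Of 10 eosinophil markers, 9 had counts in each microglia group with its libraries pooled, and Il5ra was the marker at 0. By library, 8 and 9 had counts in microglia PBS replicates 1 and 2, and 4 and 9 in microglia IL-5 replicates 1 and 2. The summed level of the list was 117 and 172 CPM in the microglia PBS libraries, and 82.0 and 105 CPM in the microglia IL-5 libraries. In T cells it was 0 and 9.87 CPM after PBS, while the IL-5 libraries were at 34.2 and 38.9 CPM. Most of the sum in microglia and in IL-5 T cells came from Prg2, the major basic protein of eosinophil granules, at 61.1 to 115 CPM in microglia and at 34.2 and 24.7 CPM in IL-5 T cells, where replicate 1 had counts for no other marker of the list. In T cells after PBS Prg2 was at 0 and 0.117 CPM, and Ccr3, the eotaxin receptor, at 9.64 CPM made up nearly all of the sum in replicate 2. Epx, the eosinophil peroxidase, was at 0 to 3.38 CPM in microglia, at 0 in 3 of the 4 T cell libraries and at 11.8 CPM in T cells IL-5 replicate 2.

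**Figure D1:**
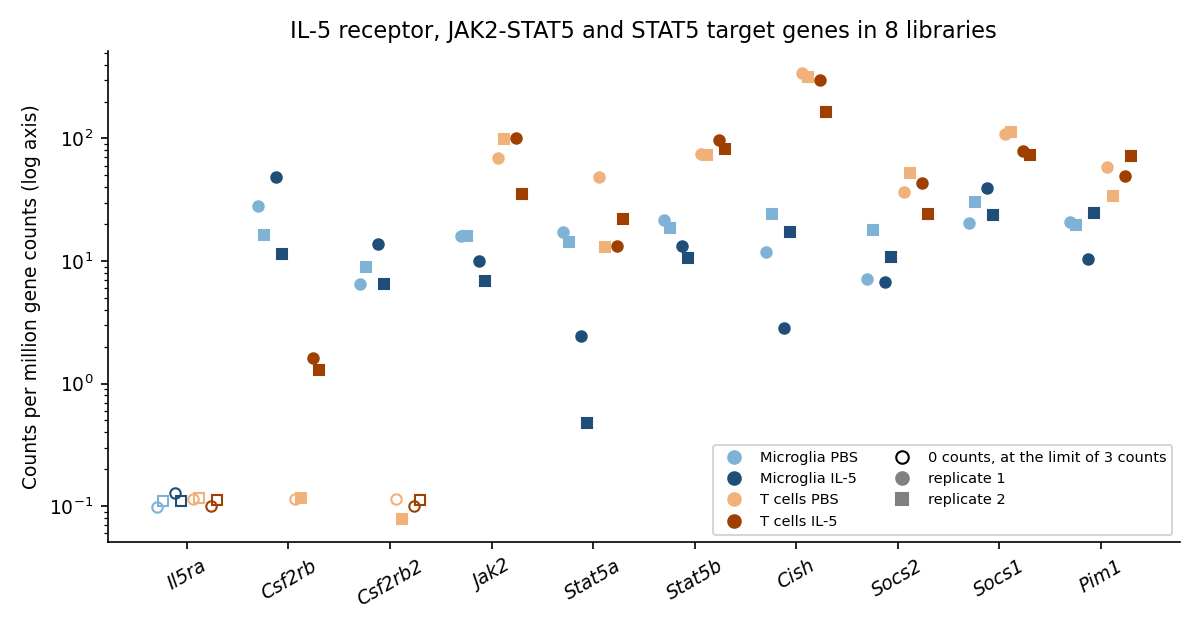
Level of each of the 10 genes in each of the 8 libraries, in CPM on a log axis, with circles for replicate 1 and squares for replicate 2; open symbols mark libraries with 0 counts, drawn at the CPM of 3 counts. Il5ra is open in all 8 libraries, Csf2rb and Csf2rb2 are high in the microglia libraries, and Cish is highest in the T cell libraries.

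The signalling chain had counts in the microglia libraries, unlike the alpha chain. Csf2rb, which encodes the beta common chain (chromosome 15, 78325752 to 78353847, plus strand), was at 28.0 and 16.3 CPM in PBS microglia and at 48.1 and 11.3 CPM in IL-5 microglia. In T cells it was at 0 and 0.117 CPM after PBS, from 0 and 3 counts, and at 1.61 and 1.28 CPM after IL-5, from 48 and 34 counts. All 4 microglia libraries lay above all 4 T cell libraries, and the ratio was taken within each treatment. Over pooled counts the level was 391-fold higher in microglia than in T cells among PBS libraries (95% exact interval 133 to 1898), from 3 counts in T cells, and 19.5-fold higher among IL-5 libraries (15.6 to 24.7).

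Csf2rb2, which encodes the IL-3-specific copy of the chain (chromosome 15, 78282507 to 78305721, minus strand), was at 6.54 and 8.87 CPM in PBS microglia and at 13.9 and 6.499 CPM in IL-5 microglia. T cells PBS replicate 2 had 2 counts, or 0.0777 CPM, and the other 3 T cell libraries had 0. The ratio of pooled counts, 943 in microglia against 2 in T cells, was 472 (95% exact interval 130 to 3907). The intervals on pooled counts leave out the spread between libraries.

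The copies lie close together on chromosome 15 and shared 518 windows of 75 bases, 10.7% of those of Csf2rb and 11.1% of those of Csf2rb2, so the split of counts between them is uncertain. Csf2rb took 81.0%, 64.8%, 77.6% and 63.6% of the summed counts of the pair in the 4 microglia libraries, in the order PBS replicates 1 and 2, IL-5 replicates 1 and 2. In both T cell libraries after IL-5 all counts of the pair, 48 of 48 and 34 of 34, were on Csf2rb, with Wilson 95% intervals from 92.6% and from 89.8% up to 100%.

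**Figure D2:**
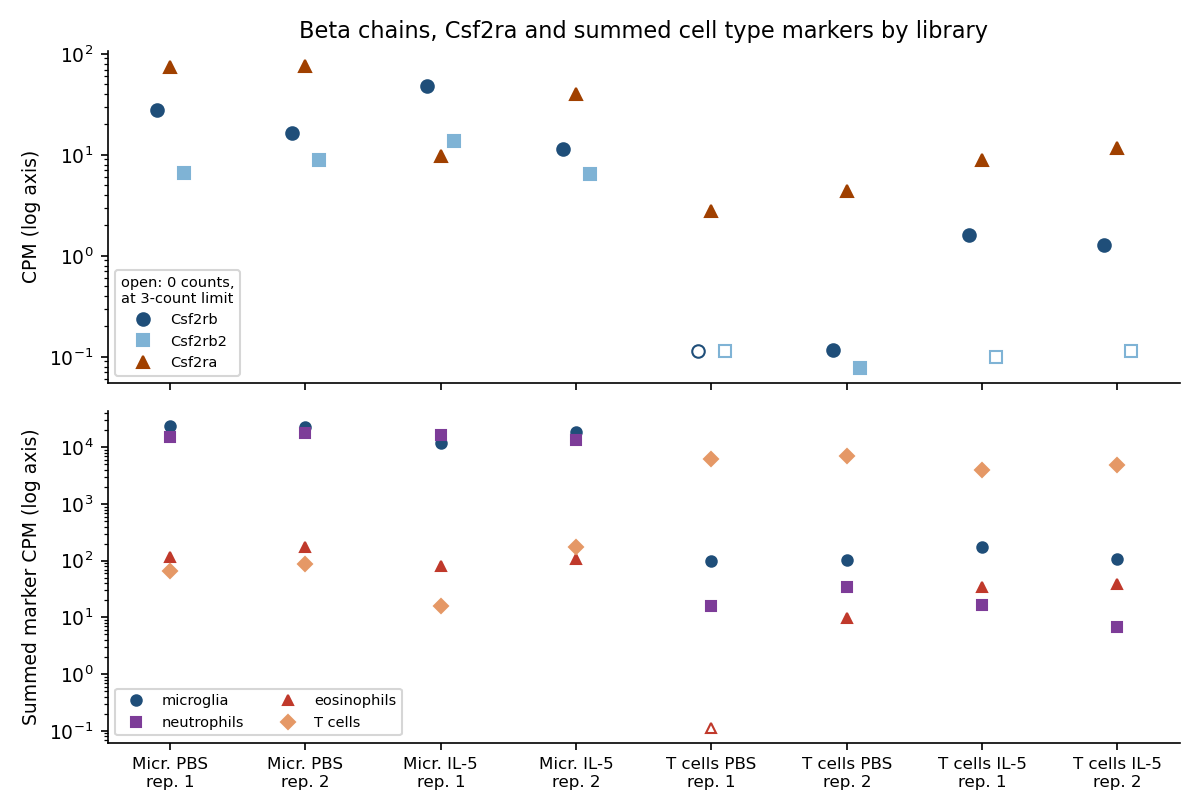
Levels of Csf2rb, Csf2rb2 and Csf2ra (top) and summed levels of 4 marker lists (bottom) in each library, in CPM on log axes, with open symbols for 0 counts drawn at the CPM of 3 counts. Both beta chains lie between 6.499 and 48.1 CPM in the 4 microglia libraries, where neutrophil markers sum to 13600 CPM or more, and at 1.61 CPM or less in T cells.

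The partners of the beta chains were present to different degrees. Csf2ra, the GM-CSF receptor alpha chain, was at 74.7 and 76.1 CPM in microglia after PBS, at 9.64 and 40.1 CPM in microglia after IL-5, and at 2.76 to 11.6 CPM in T cells. Il3ra, the IL-3 receptor alpha chain, was at 5.18 to 10.8 CPM in microglia and at 2.14 to 13.1 CPM in T cells, so the cell types overlapped. Of the ligands, Il3 had no count in any library, and Csf2, which encodes GM-CSF, was at 7.57 to 22.0 CPM in T cells and at 4.01, 0, 0 and 1.76 CPM in microglia. Transcript of the injected cytokine itself, Il5, was at 5.98 CPM in T cells PBS replicate 1, at 0.0389 CPM (1 count) in T cells PBS replicate 2, and at 0 in the other 6 libraries.

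Jak2, the kinase bound to the beta chain (chromosome 19, 29251828 to 29313080, plus strand), measured 15.97 and 16.02 CPM in PBS microglia and 10.03 and 6.90 CPM in IL-5 microglia. In T cells it was at 69.3 and 98.6 CPM after PBS, while the IL-5 libraries were at 102 and 35.0 CPM. Each T cell library was above each microglia library, and T cells IL-5 replicate 2 was the lowest of the T cell libraries.

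Stat5b (chromosome 11, 100780731 to 100850724, minus strand) was at 21.8 and 18.7 CPM in PBS microglia and at 13.2 and 10.6 CPM in IL-5 microglia. It was at 74.7 and 73.4 CPM in PBS T cells and at 97.98 and 82.7 CPM in IL-5 T cells. The groups of a cell type did not overlap, with the IL-5 libraries lower in microglia and higher in T cells.

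Stat5a, the neighbouring copy (chromosome 11, 100859351 to 100885169, plus strand), was at 17.3 and 14.2 CPM in PBS microglia and at 2.46 and 0.477 CPM in IL-5 microglia, the latter from 58 and 13 counts. In T cells it was at 48.6 and 13.1 CPM after PBS, while the IL-5 libraries were at 13.2 and 22.1 CPM. Both microglia IL-5 libraries were below both microglia PBS libraries, while in T cells the groups overlapped and PBS replicate 1 was well above the rest.

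Stat5a made up 44.3% and 43.1% of the summed Stat5a and Stat5b counts in microglia after PBS. After IL-5 it made up 15.8% (Wilson 95% interval 12.4% to 19.8%) and 4.30% (2.53% to 7.22%). In T cells the share was 39.4% and 15.1% after PBS and 11.9% and 21.0% after IL-5. The 2 microglia PBS libraries agreed within their counting intervals, whereas the 2 T cell PBS libraries, which are replicates, differed by far more than theirs. These copies shared 6.15% (Stat5a) and 7.53% (Stat5b) of their 75-base windows.

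**Figure D3:**
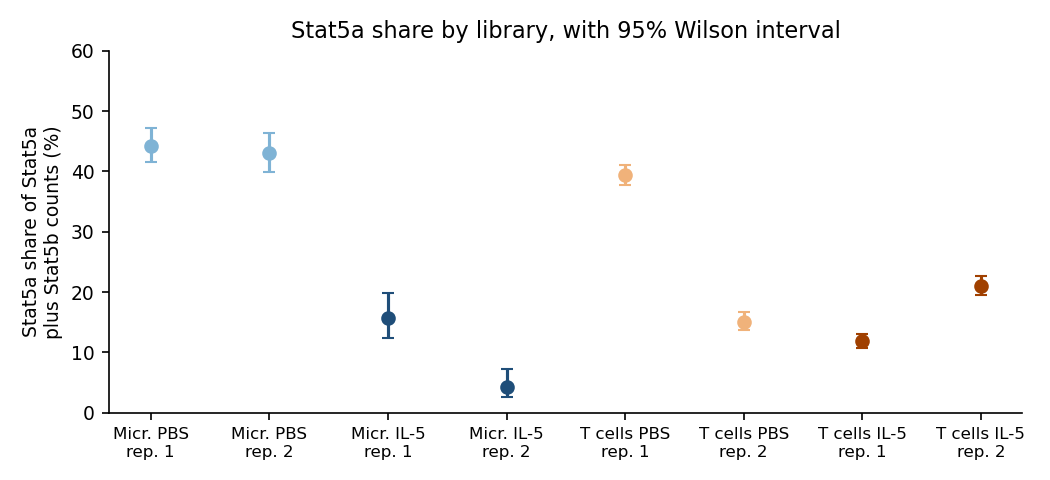
Stat5a counts as a percent of Stat5a plus Stat5b counts in each library, with Wilson 95% intervals that cover counting error only. The microglia PBS libraries lie at 44.3% and 43.1%, the microglia IL-5 libraries at 15.8% and 4.30%, and the T cell libraries spread from 11.9% to 39.4%.

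Cish, the classical feedback target of STAT5 (chromosome 9, 107296026 to 107302784, plus strand), had the highest level of the 10 genes in T cells, the cells in which Csf2rb was nearly without counts. It was at 342 and 316 CPM in PBS T cells and at 298 and 166 CPM in IL-5 T cells, against 11.8 and 24.2 CPM in PBS microglia and 2.85 and 17.4 CPM in IL-5 microglia. The cell types did not overlap, and both T cell IL-5 libraries were below both T cell PBS libraries. In T cells Cish was above 91.1% to 95.6% of all genes by level per kilobase, and in microglia above 57.4% to 74.3%.

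Socs1, an inhibitor that binds JAK kinases (chromosome 16, 10782240 to 10785536, minus strand), was at 108 and 112 CPM in PBS T cells and at 78.6 and 72.6 CPM in IL-5 T cells. In microglia it was at 20.4 and 30.4 CPM after PBS, while the IL-5 libraries were at 39.8 and 23.6 CPM. The T cell IL-5 libraries were below the T cell PBS libraries without overlap, and the microglia groups overlapped.

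Socs2 (chromosome 10, 95385362 to 95417180, minus strand) was at 36.5 and 52.6 CPM in T cells after PBS, at 43.1 and 24.02 CPM in T cells after IL-5, and at 6.76 to 17.9 CPM in microglia. Pim1 (chromosome 17, 29490753 to 29496112, plus strand) was at 58.4 and 34.2 CPM in T cells after PBS, at 49.6 and 71.8 CPM in T cells after IL-5, and at 10.3 to 24.8 CPM in microglia. For both genes the treatment groups overlapped in each cell type. Exons of Cish, Pim1 and Stat5a overlap antisense genes over 479 bases (Gm17041), 488 bases (Gm26885) and 72 bases (Stat3), and without a stated strand setting reads there cannot be told apart.

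Levels were set side by side between genes as CPM per kilobase of exon, with all annotated exons of a gene merged. For Socs2 these came to 9531 bases, where its longest transcript has 4242, so the order depends on this choice of length. In microglia the medians over 4 libraries ran from Socs1 at 9.28 and Pim1 at 6.00 through Csf2rb at 3.05, Stat5b at 2.88, Jak2 at 2.58, Cish at 2.27, Csf2rb2 at 1.63 and Stat5a at 1.17 to Socs2 at 0.936, with Il5ra at 0. Every neighbouring pair in that order overlapped between libraries except Socs2 and Il5ra. In T cells the medians per kilobase ran from Cish at 47.8 and Socs1 at 32.1 through Jak2 at 16.7, Pim1 at 16.1, Stat5b at 14.2, Socs2 at 4.18 and Stat5a at 2.47 to Csf2rb at 0.0959, with Il5ra and Csf2rb2 at 0. Neighbours did not overlap between Socs1 and Jak2, between Stat5b and Socs2, and between Stat5a and Csf2rb. The receptor chains thus stood at the bottom of the order in T cells, while in microglia Csf2rb lay among the kinase and the STATs.

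T cells were then compared with microglia over both treatments with the edgeR quasi-likelihood test on all 8 libraries, adjusted over 15397 genes by the Benjamini-Hochberg method at a threshold of 0.05. Cish, Jak2 and Stat5b were higher in T cells, and Csf2rb was lower. Csf2rb2 was also called lower, but it entered the test through its microglia libraries alone and could pass in no other direction, so its call is given as a description. Thus 3 of the 9 members tested were called higher, where 7.46% of all tested genes were, and 2 were called lower, where 12% of all tested genes were. The 4 other tested members did not pass. Il5ra, with no counts, was not tested, and the count of lower members, which includes Csf2rb2, supports nothing beyond the levels above.

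Cish was 12.02-fold higher in T cells, a log2 fold change of 3.59 with a standard error (given after ± here and below) of 0.51 and an edgeR adjusted p = 0.00154. It passed in all 17 alternative fits, with PBS libraries alone at 3.44 (adjusted p = 0.0216) and IL-5 libraries alone at 3.74 (adjusted p = 0.0163). Csf2rb was lower in T cells by a fitted log2 fold change of -7.32 ± 1.08 (edgeR adjusted p = 0.00180), at -9.22 in PBS libraries alone and -5.41 in IL-5 libraries alone, and it too passed in all 17 alternatives.

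Jak2 was 3.56-fold higher in T cells (log2 1.83 ± 0.49, edgeR adjusted p = 0.0278) and Stat5b 2.90-fold higher (log2 1.54 ± 0.37, adjusted p = 0.0193). Both calls were close to the threshold and were lost without some single libraries. With each library left out in turn, the log2 fold change ranged from 1.42 to 2.22 for Jak2 and from 1.38 to 1.74 for Stat5b. Jak2 missed the threshold without microglia PBS replicate 1 (log2 1.85, adjusted p = 0.0740), microglia PBS replicate 2 (1.82, 0.0803), T cells PBS replicate 2 (1.78, 0.0693) or T cells IL-5 replicate 1 (1.42, 0.117). Stat5b missed it without microglia PBS replicate 1 (log2 1.61, adjusted p = 0.0602), microglia PBS replicate 2 (1.47, 0.0830) or T cells IL-5 replicate 1 (1.54, 0.0621). With PBS or IL-5 libraries alone neither passed, with adjusted p = 0.201 and 0.112 for Jak2 and 0.252 and 0.0538 for Stat5b.

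The fitted log2 fold changes of the other 4 were 1.36 ± 0.85 for Stat5a (edgeR adjusted p = 0.296), 1.07 ± 0.56 for Socs2 (0.216), 0.81 ± 0.37 for Socs1 (0.155) and 0.69 ± 0.44 for Pim1 (0.309). Socs1 passed without microglia IL-5 replicate 1, the library that stood apart (1.16, adjusted p = 0.0432). The scaling mattered here. The TMM factors, which set the libraries on a common scale, were 0.604 to 0.818 in microglia and 1.31 to 1.38 in T cells, and scaling by library size alone raised the median log2 fold change of all genes by 0.81. With library size alone 6 members were called higher, where 18.1% of all tested genes were, because Socs1 (1.69, adjusted p = 0.00916), Socs2 (1.89, 0.0399) and Pim1 (1.49, 0.0467) passed too. In CPM each T cell library was above each microglia library for all 3 of these genes, which held for 25.9% of all tested genes.

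**Figure D4:**
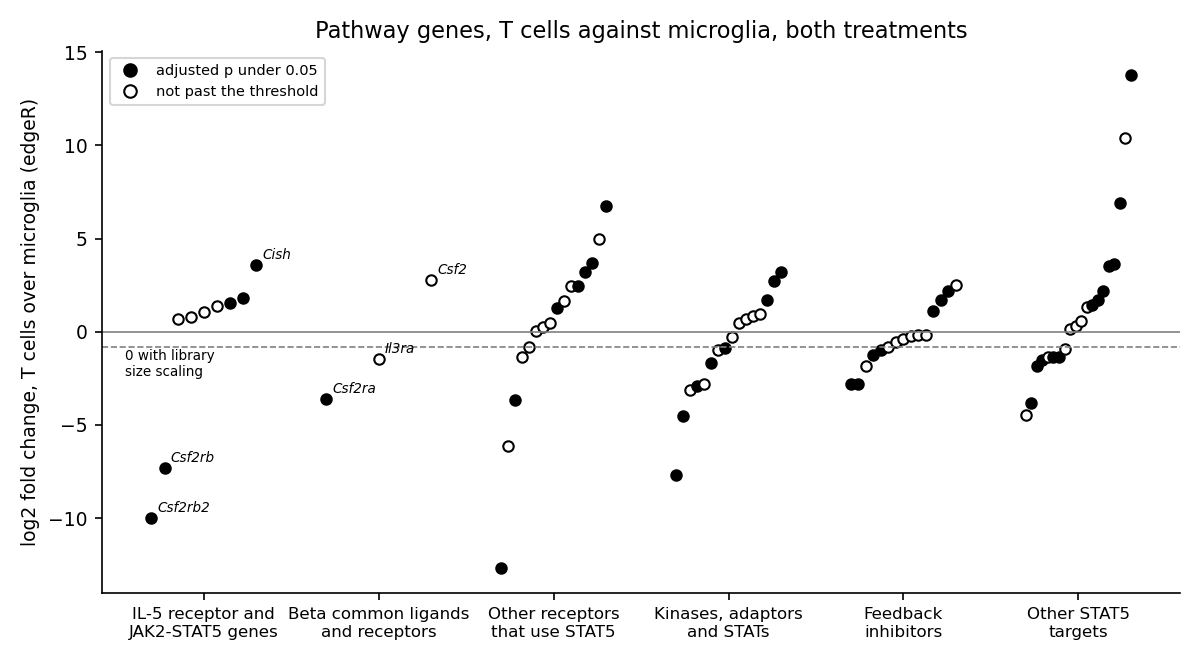
Log2 fold change of T cells over microglia, fitted with edgeR over both treatments, for the tested genes of each list, in rising order within a list; filled points passed an adjusted p of 0.05, and the dashed line is where 0 would lie with scaling by library size alone. Csf2rb2 and Csf2rb are the lowest of their list and Cish the highest.

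Genes around the pathway were taken from 5 lists with 72 genes, of which 70 were tested in this comparison. Of these, 18 were higher in T cells, where 7.46% of all tested genes were, and 17 were lower, where 12% were. The other 35 did not pass. The same shares over all tested genes stand beside the counts of each list below. Among the beta common receptors and ligands, 1 of 3 tested genes passed, Csf2ra, which was 12.3-fold lower in T cells (log2 -3.63 ± 0.52, edgeR adjusted p = 0.00163), though not in IL-5 libraries alone (adjusted p = 0.105). Other receptors that signal through STAT5 had 5 of 16 higher and 2 lower. Il7r, the IL-7 receptor alpha chain, was higher by a log2 fold change of 6.75 ± 0.85, at 130 to 215 CPM in T cells and 0 to 2.28 CPM in microglia. Il2rb, the beta chain shared by IL-2 and IL-15, was higher by 3.70 ± 0.45 and Il2rg, the common gamma chain, by 2.47 ± 0.34, with edgeR adjusted p of 0.00130 or less for all 3. Of these 16 receptors 9 did not pass, other chains of the gamma common family among them. The part of any receptor in the level of Cish was not tested.

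Prlr, the prolactin receptor, which is abundant in choroid plexus, was higher by 1.26 ± 0.30 (edgeR adjusted p = 0.0183), although its libraries overlapped on the TMM scale. Its call was lost without microglia PBS replicate 1 (adjusted p = 0.0658) or T cells IL-5 replicate 1 (0.0547), and choroid plexus markers were at a summed 46943 to 95273 CPM in T cells and 34095 to 60285 CPM in microglia. Their part in the result was not tested. The receptors lower in T cells were Crlf2, the TSLP receptor chain (-3.68 ± 0.39), and Csf3r, the G-CSF receptor. Csf3r had 3 counts over the 4 T cell libraries and was at 65.6 to 161 CPM in microglia. It entered the test through its microglia libraries alone, so its call is a description. Csf3r is also strongly expressed by neutrophils, whose markers, Csf3r among them, summed to 13600 CPM or more in the microglia libraries and 34.5 CPM or less in T cells. Their part in the levels of Csf3r and of the beta chains was not tested.

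Of kinases, adaptors and other STATs, 3 of 16 were higher in T cells. Among them were Jak1, a kinase of gamma common and other cytokine receptors, by 3.19 ± 0.45 and the phosphatase gene Ptpn11 by 1.73 ± 0.43. The 5 lower ones included the kinases Lyn (-2.93 ± 0.37) and Btk (-7.67 ± 1.07) and the adaptor Grb2 (-1.66 ± 0.25). Btk was at 0 in both PBS T cell libraries, and in IL-5 libraries alone it was at -2.40 and did not pass (adjusted p = 0.247). Of 15 feedback inhibitors, 3 were higher, Ptpn2 (1.69 ± 0.38), Cblb (2.16 ± 0.56) and Pias1 (1.09 ± 0.33), and 4 were lower, Socs3 (-2.82 ± 0.36), Dok1 (-2.81 ± 0.48), Sh2b3 (-1.27 ± 0.36) and Ptpn1 (-0.999 ± 0.29). Socs3, the inhibitor most tied to STAT3, was thus lower in T cells while Cish was higher. Calls on Ptpn11, Cblb, Pias1, Sh2b3 and Ptpn1 were lost without single libraries, with adjusted p between 0.0517 (Cblb without T cells IL-5 replicate 2) and 0.182 (Pias1 without microglia PBS replicate 2). Each of the libraries except microglia IL-5 replicate 2 took away at least 1 of these calls.

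Other STAT5 targets had 7 of 20 higher in T cells and 5 lower. Ccnd2, which encodes cyclin D2, was higher by 3.54 ± 0.27 and Bcl2, which blocks apoptosis, by 3.61 ± 0.33. Prf1, the perforin of cytotoxic cells, had no count in microglia and was at 63.7 to 134 CPM in T cells. Prf1 and another target entered the test through their T cell libraries alone, so their calls, counted among the 7, are descriptions. Gzmb, a granzyme, was higher by 1.69 ± 0.46. The lower ones included the cytokine Osm (-3.81 ± 0.39), the survival genes Mcl1 (-1.504 ± 0.23) and Bcl2l1 (-1.38 ± 0.25) and the cell cycle inhibitor Cdkn1a (-1.86 ± 0.35). Grb2, Sh2b3, Ptpn1, Mcl1, Bcl2l1 and Cdkn1a did not pass with library size scaling alone, and Gzmb was lost without microglia PBS replicate 2, microglia IL-5 replicate 1, T cells PBS replicate 2 or T cells IL-5 replicate 1 (adjusted p = 0.0625 to 0.0837).

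In microglia, IL-5 was compared with PBS over 13764 genes. None of the 9 members tested passed in edgeR, where 0% of all tested genes did, and none passed in DESeq2, where 0.131% of all tested genes were higher and 0.356% lower. The 1 member with an unadjusted p under 0.05 was Stat5a, where 4.48% of all tested genes had such a p. Stat5a had a log2 fold change of -3.14 ± 1.30, an 8.80-fold lower level after IL-5 (edgeR adjusted p = 0.964, DESeq2 adjusted p = 0.396), and ranged from -5.05 to -2.34 when single libraries were left out. Jak2 was at -0.72 ± 0.85 and Stat5b at -0.58 ± 0.73, and with Stat5a they were the 3 members with both IL-5 libraries below both PBS libraries, a pattern seen in 21.1% of all tested genes. Summed microglial markers were lower in the IL-5 libraries too, at 12061 and 18464 CPM against 24175 and 23105 CPM after PBS. The choroid plexus sum, nearly all of it Ttr, was higher, at 56522 and 60285 CPM against 40667 and 34095 CPM. Of the other choroid plexus markers, Kl was higher too, Aqp1 was lower and the rest overlapped. The part of either set of markers in these values was not tested. No member had both IL-5 libraries above, where 17.4% of all tested genes had.

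The feedback targets did not pass in microglia either. Cish was at -0.80 ± 1.01, Socs2 at -0.40 ± 0.94 and Pim1 at -0.11 ± 0.69, and Socs1 was at 0.53 ± 0.62. Csf2rb was at 0.70 ± 0.86 and Csf2rb2 at 0.63 ± 1.01. Both beta chains were highest in microglia IL-5 replicate 1, the library that stood apart. Neutrophil markers summed to 16809 CPM in that library and to 13600 to 17645 CPM in the other 3 microglia libraries. The markers went both ways. In that library S100a8 was at 10490 CPM against 5496 to 6943 CPM in the others. S100a9 was at 3094 CPM against 3660 to 4618 CPM, and Ngp at 797 CPM against 2742 to 3792 CPM. Their part in the beta chain levels of that library was not tested. Without that library the fitted values were -0.99 for Csf2rb and -0.27 for Csf2rb2, so their direction turned. The median over the 9 tested members was -0.40, beside -0.023 over all tested genes.

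Of the 72 surrounding genes, 65 were tested in microglia and none passed, with a median log2 fold change of -0.29. Without overlap 24 were below and 6 above, where 21.1% and 17.4% of all tested genes were. Csf2ra was at -1.55 ± 0.64, Il4ra, the IL-4 receptor alpha chain, at -1.38 ± 0.50, Tyk2, a JAK family kinase, at -3.26 ± 1.39, Socs3 at -1.03 ± 0.44 and Osm at -0.98 ± 0.47, each with edgeR adjusted p = 0.964. Without microglia IL-5 replicate 2, Csf2ra (-2.63, adjusted p = 0.0203), Socs3 and Tyk2 passed, in a fit that assumes the lone IL-5 library varies like the PBS pair and that called 532 genes higher and 723 lower.

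In brain T cells, IL-5 was compared with PBS over 13897 genes. None of the 8 members tested passed in edgeR, where 0% of all tested genes did, none reached an unadjusted p under 0.05, where 4.32% of all tested genes were, and none passed in DESeq2, where 2.9% of all tested genes were higher and 1.83% lower. Both IL-5 libraries were above both PBS libraries for Csf2rb and Stat5b, as in 18.1% of all tested genes, and below for Cish and Socs1, as in 17.3%. Csf2rb entered this test through its IL-5 libraries alone and could lie in no other direction, so its place above is a description. The ratio of its pooled counts, 82 after IL-5 against 3 after PBS, was 25.3 (95% exact interval 8.35 to 125). That interval leaves out the spread between libraries. The fitted log2 fold change of Csf2rb, 4.58 ± 3.18, did not pass (edgeR adjusted p = 1.00, DESeq2 adjusted p = 0.273). Of the eosinophil markers, Prg2 was higher in these IL-5 libraries, at 34.2 and 24.7 CPM against 0 and 0.117 CPM, while 9 and 5 of the 10 markers were at 0 in them, among them Ear1 and Ear2 in both. Microglial markers summed to 172 and 106 CPM in the IL-5 libraries and to 98.8 and 105 CPM in the PBS libraries, with 5, 2, 2 and 0 of the 10 markers at 0. The part of other cell types in the level of Csf2rb was not tested.

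Cish was at -0.45 ± 0.32 in T cells, Socs1 at -0.49 ± 0.31, Socs2 at -0.36 ± 0.57, Pim1 at 0.43 ± 0.50, Stat5b at 0.34 ± 0.34, Jak2 at -0.24 ± 0.58 and Stat5a at -0.77 ± 0.90 (edgeR adjusted p = 1.00 each). The standard errors of Cish, Socs1 and Stat5b were the smallest of the members, at 0.31 to 0.34 on the log2 scale. Summed T cell markers were at 3941 and 4920 CPM after IL-5 and 6225 and 6966 CPM after PBS, in the direction of Cish and Socs1, and choroid plexus markers were at 92988 and 95273 CPM against 67132 and 46943 CPM. Their part in those values was not tested. The median over the 8 tested members was -0.30, beside -0.012 over all tested genes.

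**Figure D5:**
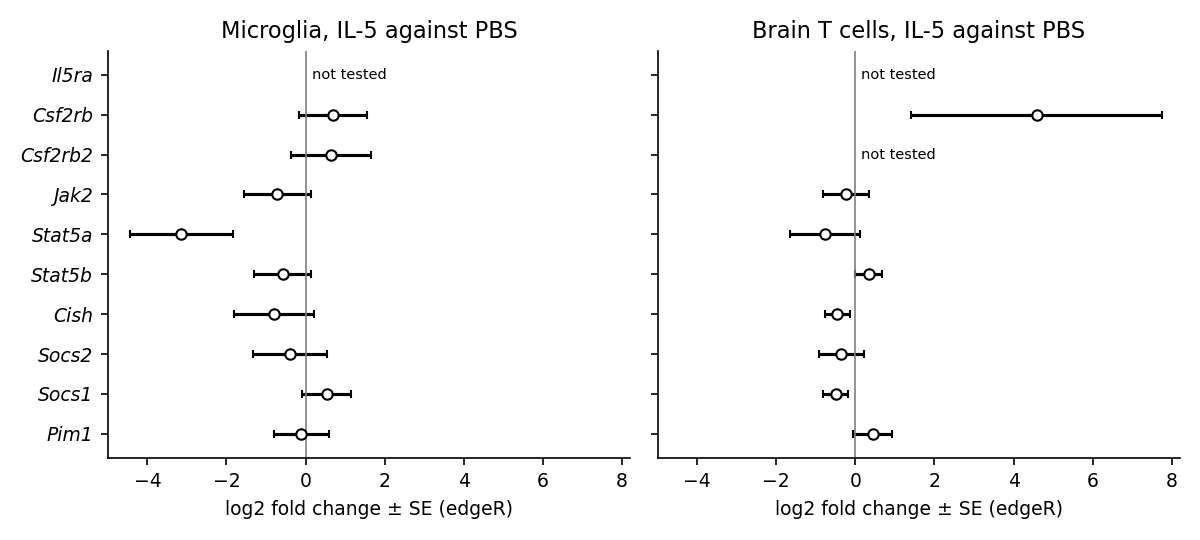
Log2 fold change of IL-5 over PBS with its standard error, fitted with edgeR in microglia (left) and in brain T cells (right), for each of the 10 genes. No gene passed the threshold; Stat5a in microglia (-3.14) and Csf2rb in T cells (4.58) lie farthest from 0, with standard errors of 1.30 and 3.18.

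Of the surrounding genes, 67 were tested in T cells and none passed in edgeR, with a median of -0.19. Without overlap 10 were above and 17 below, where 18.1% and 17.3% of all tested genes were. Btk, a kinase of B cells and myeloid cells, was at 15.8 and 4.14 CPM after IL-5 and listed at 0 after PBS. The phosphatase gene Ptpn6 had a log2 fold change of -0.84 ± 0.22 and the kinase gene Pim2 of -0.98 ± 0.38. Ptpn6 and Pim2 passed in DESeq2 alone, with adjusted p = 4.5e-05 and 0.0451. DESeq2 alone also called Btk higher. Btk entered this test through its IL-5 libraries alone and could pass in no other direction, so its call is a description. Csf2, Il3ra and Csf2ra were at -0.98 ± 0.96, 1.07 ± 1.99 and 1.56 ± 1.73.

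The difference of the IL-5 responses between the cell types was tested as an interaction over 15397 genes. None of the 9 members tested passed in edgeR, where 0% of all tested genes did, and none reached an unadjusted p under 0.05, where 5.17% of all tested genes were. In DESeq2, which called 0.857% of all tested genes higher and 0.357% lower, none of them passed either. The member nearest to the threshold was Csf2rb, whose response in T cells exceeded that in microglia by 3.81 ± 1.75 on the log2 scale (edgeR adjusted p = 0.902). Stat5a differed by 2.31 ± 1.69, Csf2rb2 by -3.58 ± 2.51 and Cish by 0.30. Csf2ra differed by 3.08 ± 0.97 and Btk by 10.55 ± 2.03 (edgeR adjusted p = 0.902 and 0.433). Btk passed in DESeq2 (adjusted p = 0.000462) and in edgeR without the low count filter (adjusted p = 0.000863). It was at 0 in both T cell PBS libraries, so its response in T cells could only be a rise, and these calls are descriptions.

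The genes most like the receptor chain and the target in their pattern were ranked by Pearson's r of log2(CPM + 1) over the 8 libraries, among 11470 genes with a mean of at least 5 CPM. For Csf2rb these were Sdf2l1 (r = 0.994), Dctpp1 (0.984), Ltc4s (0.981), Maf (0.980) and Derl2 (0.980). For Cish they were Zfc3h1 (0.997), Gbp2 (0.996), Arhgdib (0.996), Zcchc18 (0.994) and Plvap (0.993). The 8 points of each correlation fall into the 2 cell types, so such values describe mainly the division between microglia and T cells.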

How the data were processed

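Sorted microglia and brain T cells gave 8 RNA libraries. Tools credited in the submitters' processing notes are STAR 2.5.3a, Cufflinks 2.0, DESeq2 1.1, FastQC 1.0.0 and bcl2fastq 2.20.0.422, with builds mm10 and GRCm38. The counting tool and strand setting are not given in the sources used here. The authors deposited whole, unscaled read counts for each gene. From 24953 entries, 2 summary entries (reads outside genes, 15.2% to 25.5%, and ambiguous reads, 1.39% to 1.77%) and 27 genes with 53 cells that were not numbers were left out. Of the remaining symbols 24390 (97.9%) matched GENCODE M21 on GRCm38.

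The quasi-likelihood test of edgeR 4.0.16 in R 4.3.3 (robust, TMM scaling, filterByExpr with a minimum count of 10) was two-sided and adjusted over all tested genes by the Benjamini-Hochberg method. IL-5 was compared with PBS in a fit of each cell type, and the cell types and the interaction in a fit of all libraries. Standard errors came from the log2 fold change divided by the root of F. Overlap between groups was judged on TMM-scaled CPM unless CPM is named. The pipeline was tested on simulated data, where most small changes were missed. It recovered 1.49% of 2-fold and 8.96% of 4-fold changes in microglia, and 2.99% and 40.3% in T cells. Between the cell types it recovered 0% and 46.3%. Alternatives were DESeq2 1.42.0, other scalings and filters, a replicate block, a joint fit, summed beta chains, PBS or IL-5 libraries alone, and each library left out. Named genes were all members, the beta common list, up to 4 genes per direction and list past the threshold, or the gene with the smallest p where none passed, and the 5 most correlated genes. Members and lists were chosen with earlier results of these data known. A few genes that this rule names are not reported here.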

Additional observations from a re-analysis of the deposited data

How the results depend on the processing

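With 2 libraries per group, standard errors of members reached 3.18 on the log2 scale, so most changes of the size seen could not be told from the spread. Members called by treatment or by the interaction were 0 in every alternative run. Calls over all genes moved more: DESeq2 called 18 genes higher and 49 lower in microglia, 403 and 255 in T cells, 2181 higher in T cells against microglia, and 132 higher and 55 lower in the interaction. Without the low count filter 2 genes were higher in T cells after IL-5, and 27 were higher and 4 lower in the interaction. With all 8 libraries in one fit 2 genes were higher in T cells after IL-5. For T cells against microglia, library size scaling gave 2790 higher, 868 lower and 6 members higher. PBS libraries alone gave 371 higher and 780 lower, with 1 member in each direction, and IL-5 libraries alone 367 and 957, with 1 member higher. Summing the beta chains left 1 member lower.

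Replicate numbers were shared between groups, but deviations of same-numbered libraries correlated at only -0.00335 to 0.0198 over 15397 genes, so they were not taken as pairs. The replicate block changed no member's call, lost the calls on Pias1 (adjusted p = 0.0675) and Ptpn1 (0.0526) in T cells against microglia, and turned the interaction of Socs2 to 0.0057 and of Csf2 to -0.31. The interaction of Socs2, -0.013 in the main test, was also positive with DESeq2 (0.0017), RLE factors (0.0019) and library size (0.11). Il3ra in microglia, -0.020 in the main test, was 0.0086 with DESeq2, 0.0083 with RLE factors and 0.014 in the joint fit.

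With each library left out in turn, the counts ranged as follows: 0 to 532 genes higher and 0 to 723 lower in microglia, 0 to 1 higher in T cells, 750 to 1724 higher, 1233 to 1910 lower and 1 to 4 members higher in T cells against microglia, and 0 to 178 higher and 0 to 54 lower in the interaction. The upper ends in microglia and in the interaction came without microglia IL-5 replicate 2. Among log2 fold changes whose sign turned, in microglia Csf2rb ranged from -0.99 to 1.45, Csf2rb2 from -0.27 to 1.18, Socs2 from -0.91 to 0.40, Socs1 from -0.12 to 0.99, Pim1 from -0.63 to 0.27, Csf2 from -8.68 to 7.44 and Il3ra from -0.40 to 0.29. In T cells Jak2 ranged from -1.23 to 0.33, Stat5a from -1.43 to 0.49, Socs2 from -0.86 to 0.0075 and Il3ra from -0.75 to 1.84. In the interaction Jak2 ranged from -0.56 to 1.04, Cish from -0.40 to 1.79, Socs2 from -0.77 to 0.48, Csf2 from -8.99 to 8.26 and Il3ra from -0.74 to 1.81. The cause of these changes was not tested.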

Other observations

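Markers of other cell types that are known to respond to IL-5 or to make it were also measured, and Il5ra was at 0 beside all of them. All 8 B cell markers had counts in each group, at a summed 138 to 189 CPM in microglia after PBS, 264 to 320 CPM in microglia after IL-5, 135 to 286 CPM in T cells after PBS and 224 to 341 CPM in T cells after IL-5. Cd79a, a chain of the B cell antigen receptor, was at 74.4 and 97.4 CPM in PBS microglia and at 208 and 172 CPM in IL-5 microglia. In T cells Cd79a was at 104 and 23.3 CPM without IL-5 and at 66.6 and 60.4 CPM with it. Basophil and mast cell markers summed to 55.0 to 206 CPM over the 8 libraries, with the receptor chain gene Ms4a2 at 0 in the microglia IL-5 group and in both T cell groups. Markers of group 2 innate and helper cells, known sources of IL-5, summed to 9.86 to 16.7 CPM in microglia and 101 to 127 CPM in T cells. Most of the T cell sum was Gata3, at 71.1 to 80.5 CPM. Each other marker of the list was at 21.8 CPM or less in T cells, with Il13 at 0.226 CPM or less. Which cells carried these transcripts was not tested.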
